A study of Bos taurus with 8 samples.

Results

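The miRNAs described here come from the miR-193 and miR-365 hairpins. They are bta-miR-193a-5p, bta-miR-193a-3p, bta-miR-193b and bta-miR-365-3p, 4 of the 704 miRNA names in the table, taken by name and not by their level. Small RNA was sequenced from blood plasma and from blood cells of the same 4 cows, numbered 44 to 47, which gave 1 plasma and 1 blood cell library per cow. The animals were non-pregnant female Holstein-Friesian crosses aged 20 to 25 months, with no treatment named, and both fractions came from each animal. Plasma was spun, filtered and extracted from 0.7 mL, whereas the cell fraction was a resuspended pellet of red blood cells and buffy coat, of which 250 μL was extracted. Each library took 5 μL of RNA extract whatever its RNA content.

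miRNAs are cut from hairpin precursors whose arms can each give a mature miRNA, named 5p and 3p. A mature miRNA finds its targets mainly through the bases near its 5′ end, its seed, and miR-193a-3p and miR-193b are paralogues that share this seed. In human and mouse cells the miR-193b and miR-365 hairpins lie close together and can be made from 1 primary transcript, and the cluster is known from brown fat differentiation, from fat and liver tissue and, for the miR-193 members, as a brake on cell growth in several cancers. miR-193a-5p is the other arm of the miR-193a hairpin and has a different seed.

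In bosTau4, the build that the table uses, both arms of miR-193a lay on the minus strand of chromosome 19. miR-193a-5p was at chr19:18311070-18311091 and miR-193a-3p at chr19:18311036-18311057, with 12 bases between them. miR-193b lay on the plus strand of chromosome 25 at chr25:14328136-14328159, and miR-365-3p at chr25:14332892-14332913 on the same strand, 4732 bases further on. The table also held the other arm of this hairpin, miR-365-5p, at chr25:14332852-14332874, and gave 1 location per name. RefSeq's ARS-UCD2.0 annotation listed 5 hairpins of these families, MIR193B and MIR365-1 on chromosome 25, MIR365-2 and MIR193A on chromosome 19 and MIR193A-2 on chromosome 14. Between MIR193B and MIR365-1 it listed no other gene, and the lncRNA LOC100849865 held both. Between MIR365-2 and MIR193A lay 1 gene, MIR2333. Reads named miR-365-3p could come from either miR-365 hairpin, and reads named miR-193a from either miR-193a hairpin, so which locus made them cannot be told apart by name. Whether the loci lie in exons or introns was not analysed here.

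Plasma libraries held 1453384 to 4296460 miRNA reads and blood cell libraries 11169204 to 14471979, and levels are given as reads scaled to the miRNA reads of the library (RPMM). A count of 3 reads was worth 0.696 to 2.07 RPMM in a plasma library and 0.207 to 0.268 RPMM in a blood cell library. The marker miRNAs of the fractions were checked first. The red blood cell miRNAs miR-451, miR-486 and miR-144 summed to between 89165 and 180387 RPMM in plasma, against 488192 to 561168 RPMM in blood cells, and all 3 were called lower in plasma. The 8 leukocyte miRNAs summed to between 33456 and 70793 RPMM in plasma, against 25980 to 32013 RPMM in blood cells. With TMM, 5 of the 8 were called lower in plasma and 0 higher, and with library totals alone 0 lower and 6 higher, so their direction depends on the scaling. Both arms of miR-126, of endothelium and platelets, were called higher in plasma. Plasma was filtered to clear it of cell debris. The paper cites work in which blood cell numbers affected circulating miRNA levels, and this was not tested here. In the pelleted fraction, a low level can mean few cells of a type or little RNA in each. How the markers came to be in plasma was not tested. The fractions were compared on read counts by the quasi-likelihood test of edgeR, blocked by cow and scaled by TMM, which sets 1 factor per library so that most miRNAs keep the same level. A call is an adjusted p (Benjamini-Hochberg) under 0.05. Names entered the test when 3 or more libraries of a fraction reached 25 RPMM, and 209 of the 704 did so. Both arms of miR-126 entered through plasma alone. Of the 70 names that entered in this way 90.0% were called higher in plasma, so the call of miR-126 says little by itself. Over these 209 the log2 fold change, always plasma over blood cells, had a median of 0.08 with TMM and of 1.76 with library totals alone. Calls went downward for 39.7% and upward for 45.5% with TMM, and for 24.9% and 67.0% with library totals. The leukocyte counts thus shifted the same way as the whole table, which says little about leukocyte miRNAs in particular. The 3 red blood cell miRNAs stayed lower under both scalings.

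All 4 members were called higher in plasma than in blood cells. Of the 209 tested miRNAs, 45.5% were called higher in plasma, while 39.7% were lower. The abundance filter kept 3 of the members, miR-193a-3p, miR-193b and miR-365-3p, and each passed it through plasma alone. A miRNA that passes in this way has to be high in plasma, and 90.0% of the 70 such miRNAs were called higher there, with a median log2 fold change of 4.27, so the count of the members says little about them in particular. miR-193a-5p failed the filter and was taken from the same test on every name, in which 25.3% of the 704 were called higher in plasma. When library totals replaced TMM, the share of the 209 that was higher in plasma came to 67.0%, and the 4 members were again among the calls. In RPMM, every plasma library exceeded every blood cell library for all 4 members, which held for 64.1% of the 209.

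**Figure D1:**
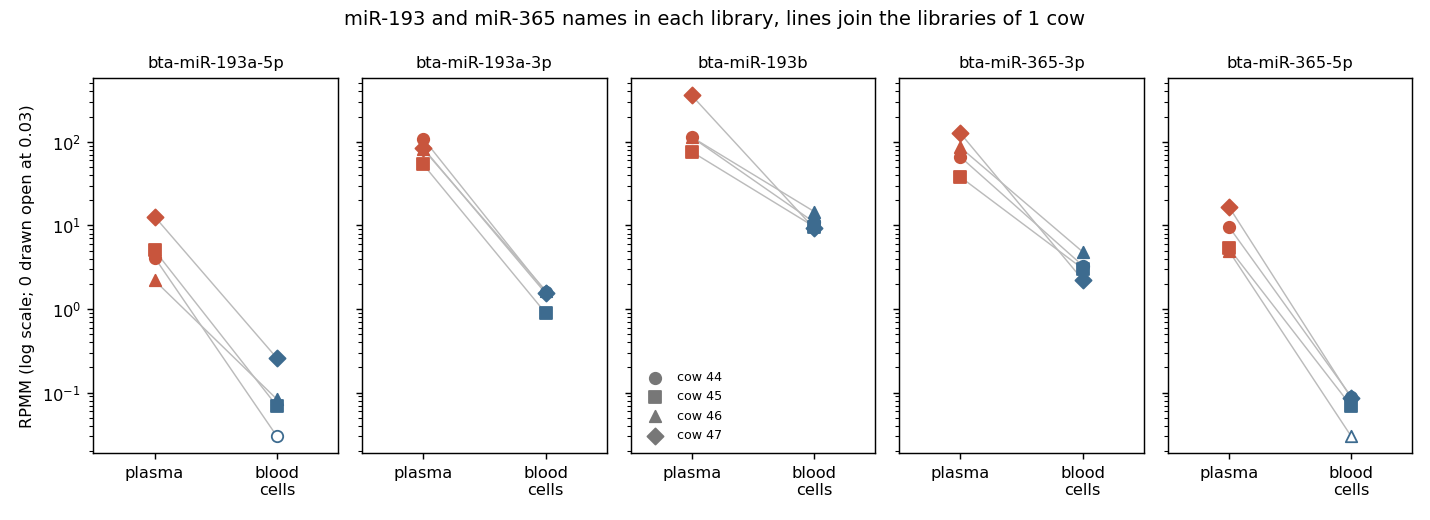
RPMM of the 4 members and of miR-365-5p in each library on a log axis, with plasma in red at the left of each panel and blood cells in blue at the right, 1 symbol per cow and a line joining the libraries of a cow. Open symbols drawn at 0.03 are libraries with 0 reads. Plasma lies above blood cells in every panel, and cow 47 is the highest plasma library for miR-193b at 358 RPMM and not for miR-193a-3p at 84.0 RPMM.

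miR-193a-3p, the seed-sharing paralogue placed on chromosome 19 in bosTau4, had the largest difference of the 3 tested members. In plasma it had 109 RPMM in cow 44, 53.7 in cow 45, 81.9 in cow 46 and 84.0 in cow 47, against 1.61, 0.898, 1.67 and 1.55 RPMM in the blood cells of cows 44, 45, 46 and 47. Cow 45 was the lowest in both fractions, and the lowest plasma library was 32.2 times the highest blood cell library. It averaged 82.3 ± 22.8 RPMM in plasma against 1.43 ± 0.359 RPMM in blood cells (SD, n = 4), from 841 and 69 reads in all. Its log2 fold change was 4.16 (standard error 0.22, edgeR adjusted p = 6.86e-06, higher in plasma in 4 of 4 cows), which ranked 42 among the 209. The ratio of RPMM within a cow was 68.0 in cow 44, 59.9 in cow 45, 49.2 in cow 46 and 54.2 in cow 47, so the cows differed little.

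miR-193b, the paralogue from chromosome 25, was the most abundant member in both fractions and had the smallest of the members' fold changes. In plasma it had 114 RPMM in cow 44, 76.0 in cow 45, 114 in cow 46 and 358 in cow 47, against 10.9, 9.67, 14.7 and 9.22 RPMM in the blood cells of cows 44, 45, 46 and 47. Cow 47 was the high library in plasma and the low one in blood cells, and the groups did not overlap. It averaged 165 ± 130 RPMM in plasma against 11.1 ± 2.47 RPMM in blood cells (SD, n = 4), from 2158 and 545 reads. The log2 fold change was 1.94 (standard error 0.49, edgeR adjusted p = 0.00988, higher in plasma in 4 of 4 cows), rank 68 among the 209. Without cow 47 it was 1.40 (standard error 0.25, edgeR adjusted p = 0.00131), and the ratio of mean RPMM was 8.61 instead of 14.9, with plasma at 101 ± 21.7 RPMM and blood cells at 11.7 ± 2.60 RPMM (SD, n = 3). Within a cow the ratio of RPMM was 10.4 in cow 44, 7.87 in cow 45, 7.76 in cow 46 and 38.9 in cow 47.

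miR-365-3p, placed near miR-193b in bosTau4, lay between the paralogues in its fold change. In plasma it had 66.1 RPMM in cow 44, 38.0 in cow 45, 85.7 in cow 46 and 127 in cow 47, against 3.31, 3.04, 4.83 and 2.24 RPMM in the blood cells of cows 44, 45, 46 and 47. As for miR-193b, cow 47 was highest in plasma and lowest in blood cells, and cow 46 was highest in blood cells. It averaged 79.1 ± 37.3 RPMM in plasma against 3.35 ± 1.08 RPMM in blood cells (SD, n = 4), from 919 and 165 reads. The log2 fold change was 2.78 (standard error 0.43, edgeR adjusted p = 0.000942, higher in plasma in 4 of 4 cows), rank 59 among the 209, and 2.33 without cow 47. Within a cow the ratio of RPMM was 20.0 in cow 44, 12.5 in cow 45, 17.7 in cow 46 and 56.6 in cow 47.

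miR-193a-5p was sparse. It had 6, 16, 4 and 55 reads in the plasma of cows 44, 45, 46 and 47, which are 4.13, 5.03, 2.20 and 12.8 RPMM, against 0, 1, 1 and 3 reads in their blood cells. Cow 47 again held the highest plasma level, and also the most reads in blood cells. It averaged 6.03 ± 4.64 RPMM in plasma against 0.103 ± 0.110 RPMM in blood cells (SD, n = 4), and without cow 47 3.79 ± 1.45 RPMM in plasma against 0.0508 ± 0.0446 RPMM in blood cells (SD, n = 3). Its log2 fold change in the test on every name was 4.32 (standard error 0.60, edgeR adjusted p = 1.96e-05). The ratio of mean RPMM was 58.7. Because the blood cell reads were so few, reads were also pooled over cows and divided by the pooled library sizes, so deeper libraries weigh more. The plasma over blood cell ratio was then 74.2 (95% exact binomial interval 30.5 to 235, from 81 and 5 reads), or 75.9 (19.0 to 659.5, from 26 and 2 reads) without cow 47. Such intervals cover counting error only, since PCR copies are not independent molecules.

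The other arm of the miR-365 hairpin, miR-365-5p, is not among the members but comes from the same precursor. It had 14, 17, 9 and 72 reads in the plasma of cows 44, 45, 46 and 47, against 1, 1, 0 and 1 reads in their blood cells. The ratio from its reads pooled in the same way was 171 (95% exact binomial interval 57.0 to 841, from 112 and 3 reads), or 117 (30.3 to 997, from 40 and 2 reads) without cow 47. miR-365-5p was called higher in plasma in the test on every name (edgeR adjusted p = 1.12e-06).

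In plasma the order of mean levels was miR-193b, miR-193a-3p, miR-365-3p and miR-193a-5p, at ranks 133, 156, 158 and 280 of 704. In blood cells it was miR-193b, miR-365-3p, miR-193a-3p and miR-193a-5p, at ranks 172, 212, 272 and 440. miR-193a-3p and miR-365-3p in plasma, at 82.3 and 79.1 RPMM, did not differ beyond their spread, and miR-193b in plasma overlapped both. In blood cells the ranges of the members did not overlap. The mature names are 22 to 24 bases long, and levels of different names are given as reads, without correction for how readily a sequence enters a library.

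**Figure D2:**
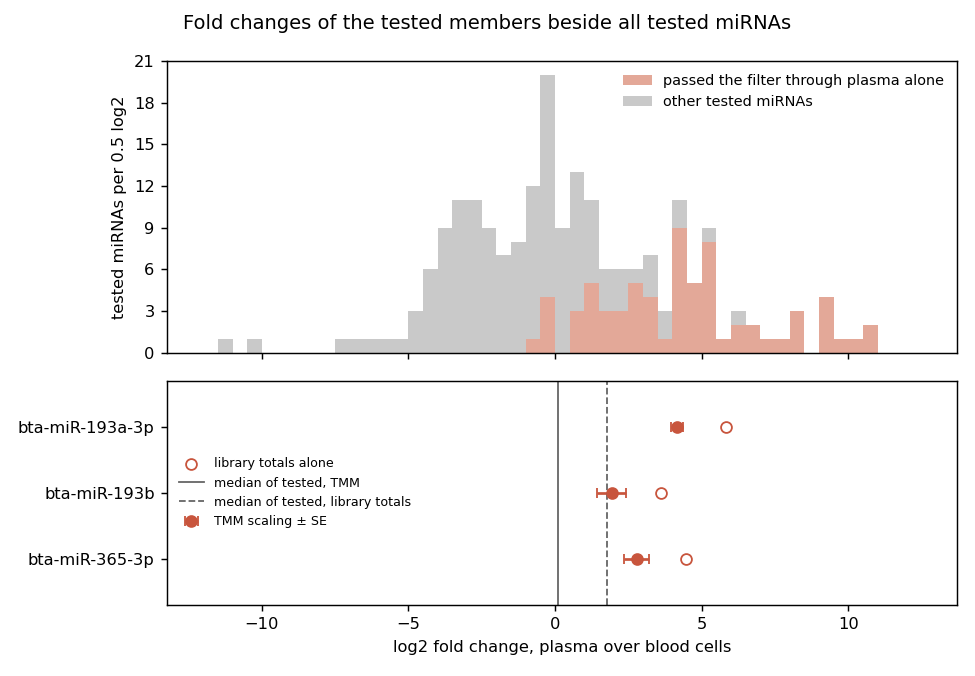
Upper panel, number of the 209 tested miRNAs per bin of log2 fold change, plasma over blood cells, with the 70 that passed the filter through plasma alone in red and the others in grey, stacked. Lower panel, the 3 tested members with TMM (filled, ± standard error) and with library totals alone (open), beside the median of the 209 under each scaling (lines at 0.08 and 1.76). miR-193a-3p, at 4.16, lies near the median of 4.27 of the miRNAs that passed through plasma alone, and miR-193b, at 1.94, and miR-365-3p, at 2.78, lie below it.

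The scaling moved the size of the fold changes and not their direction. With library totals alone, the log2 fold change was 5.82 for miR-193a-3p, 4.46 for miR-365-3p, 3.62 for miR-193b and 5.66 for miR-193a-5p. The median of the 209 was 1.76 on that scale and 0.08 with TMM, so the 3 tested members kept about the same distance from it. The order miR-193a-3p, miR-365-3p, miR-193b was the same under both scalings.

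The balance among the members shifted the same way in 4 of 4 cows for miR-193b against miR-193a-3p and for miR-365-3p against miR-193b. A ratio of reads within a library does not depend on the scaling between libraries, and 3 such ratios were computed. In plasma there were 1.04 miR-193b reads per miR-193a-3p read in cow 44, 1.42 in cow 45, 1.39 in cow 46 and 4.27 in cow 47, against 6.78, 10.8, 8.80 and 5.94 in the blood cells of cows 44, 45, 46 and 47. The groups did not overlap, and cow 47 came closest. As a share of the reads of the pair, miR-193b took 50.9% in cow 44 (95% Wilson interval 45.5 to 56.3), 58.6% in cow 45 (53.8 to 63.2), 58.1% in cow 46 (53.0 to 63.2) and 81.0% in cow 47 (79.2 to 82.7) in plasma. In blood cells it took 85.6% to 91.5%, and the interval of cow 47 there was 78.4% to 90.7%. The log2 ratio averaged 0.78 ± 0.90 in plasma against 2.94 ± 0.38 in blood cells (SD, n = 4), a difference of -2.16 (SD 1.15, range -2.88 to -0.45), lower in plasma in 4 of 4 cows. The exact two-sided permutation test of the paired differences gave p = 0.12 (0.19 adjusted over the 3 ratios), and 0.12 is the smallest p that this test allows with 4 pairs, so the test cannot reach 0.05.

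miR-365-3p took a larger part of its pair with miR-193b in plasma than in blood cells. Its share of the reads of both was 36.8%, 33.3%, 43.0% and 26.1% in the plasma of cows 44, 45, 46 and 47, against 23.3%, 23.9%, 24.8% and 19.5% in their blood cells. The plasma share was the higher one in every cow, and the groups did not overlap although the plasma of cow 47 lay just above the blood cells of cow 46. The log2 ratio averaged -0.92 ± 0.46 in plasma against -1.74 ± 0.19 in blood cells (SD, n = 4), a difference of 0.82 (SD 0.29, range 0.52 to 1.19), higher in plasma in 4 of 4 cows. The exact two-sided permutation test gave p = 0.12 (0.19 adjusted), again the smallest it can give.

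The shares of the miR-193a arms overlapped between the fractions. miR-193a-5p took 3.64%, 8.56%, 2.61% and 13.2% of the reads of both arms in the plasma of cows 44, 45, 46 and 47, against 0%, 7.14%, 4.76% and 14.3% in their blood cells. The blood cell shares rest on 14 to 21 reads, and 0 of 18 reads in cow 44 allows a share of up to 17.6% (upper Wilson limit). miR-193a-3p was thus the main arm in all 8 libraries. The log2 ratio of the arms differed by -0.30 (SD 0.77, n = 4 pairs, exact two-sided permutation p = 0.62), lower in plasma in 3 of 4 cows, and by 0.03 without cow 46. With a pseudocount of 1 in place of 0.5 it was -0.69 (SD 0.56, n = 4 pairs, exact permutation p = 0.12), lower in plasma in 4 of 4 cows. The value and the number of cows thus depend on how 0 to 3 blood cell reads are treated, and no difference could be resolved at this depth. For the arms of miR-365, which were not tested, the 5p share was 12.7%, 12.3%, 5.45% and 11.7% in the plasma of cows 44, 45, 46 and 47, against 2.63%, 2.22%, 0% and 3.70% in their blood cells, where at most 1 read stood behind each value.

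**Figure D3:**
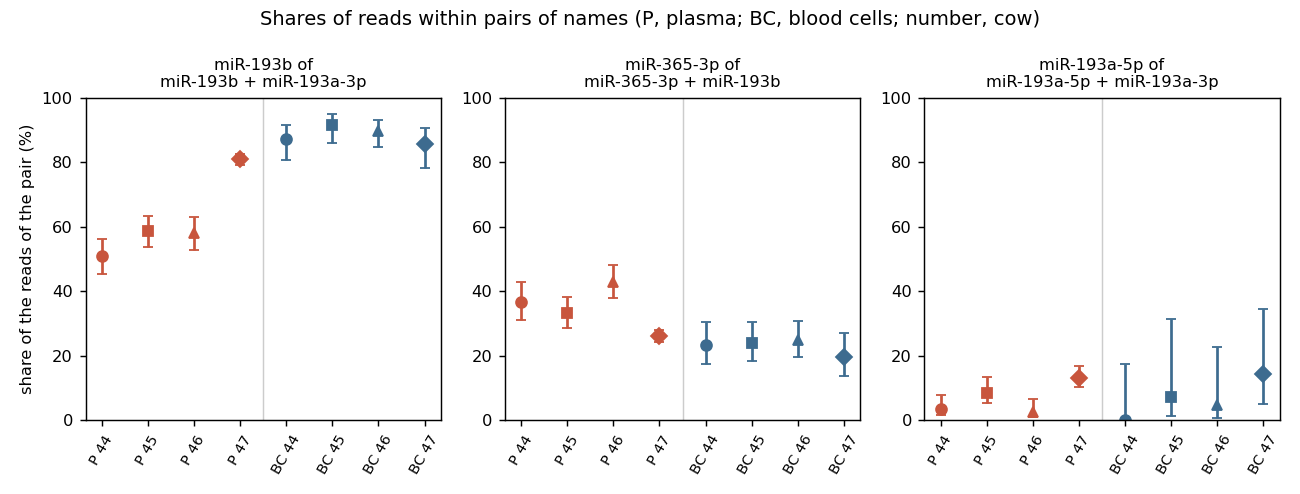
Share of reads (%) that the first name of a pair took in each library, with 95% Wilson intervals, plasma (P) in red at the left and blood cells (BC) in blue at the right, numbered by cow. miR-193b takes 50.9% to 81.0% of its pair with miR-193a-3p in plasma and 85.6% to 91.5% in blood cells, miR-365-3p takes the larger shares of its pair with miR-193b in plasma, and the shares of miR-193a-5p overlap.

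The sequences of miR-193a-3p and miR-193b differ in a few bases only, and the authors' counting allowed 1 mismatch, so some short or altered reads may stand under the other name. With both summed before scaling, the log2 fold change was 2.49 (standard error 0.40, edgeR adjusted p = 0.00118), and 2.08 without cow 47. The sum was thus higher in plasma however the reads were shared, whereas the ratio of the names rests on that assignment.

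Cow 47 stood apart in plasma for the members other than miR-193a-3p. Each plasma library was set against the median of the other 3 cows. For cow 47 this ratio was 3.16 for miR-193b, 1.92 for miR-365-3p and 1.03 for miR-193a-3p, which ranked 5, 8 and 34 of 209, while the median of the 209 was 0.727 and the 5th to 95th percentile 0.366 to 1.36. So miR-193b and miR-365-3p were above that range and miR-193a-3p was inside it. The sparse arms were high as well, at 3.09 for miR-193a-5p with 55 reads and 3.13 for miR-365-5p with 72 reads. With TMM-scaled counts the ratios were 4.41, 2.68 and 1.36 for miR-193b, miR-365-3p and miR-193a-3p. In blood cells the same cow was not high, at 0.845 for miR-193b, 0.677 for miR-365-3p and 0.963 for miR-193a-3p.

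Of the 209 tested miRNAs, 5 (2.39%) reached a ratio of 3 in the plasma of cow 47, and 1 to 3 did so in the plasma of another cow, none of them a member. Liver miRNAs among the 5 were miR-122 at 17.2 and miR-802 at 3.40. The others were miR-193b at 3.16, miR-30a-5p at 5.83 and miR-1246 at 5.17, the last 2 being named after their values were seen. In the other direction, the plasma of cow 45 was low in the 3 tested members, at 0.443 for miR-365-3p, which ranked 207 of 209, at 0.639 for miR-193a-3p and at 0.668 for miR-193b, whereas miR-193a-5p, with 16 reads there, was at 1.22.

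**Figure D4:**
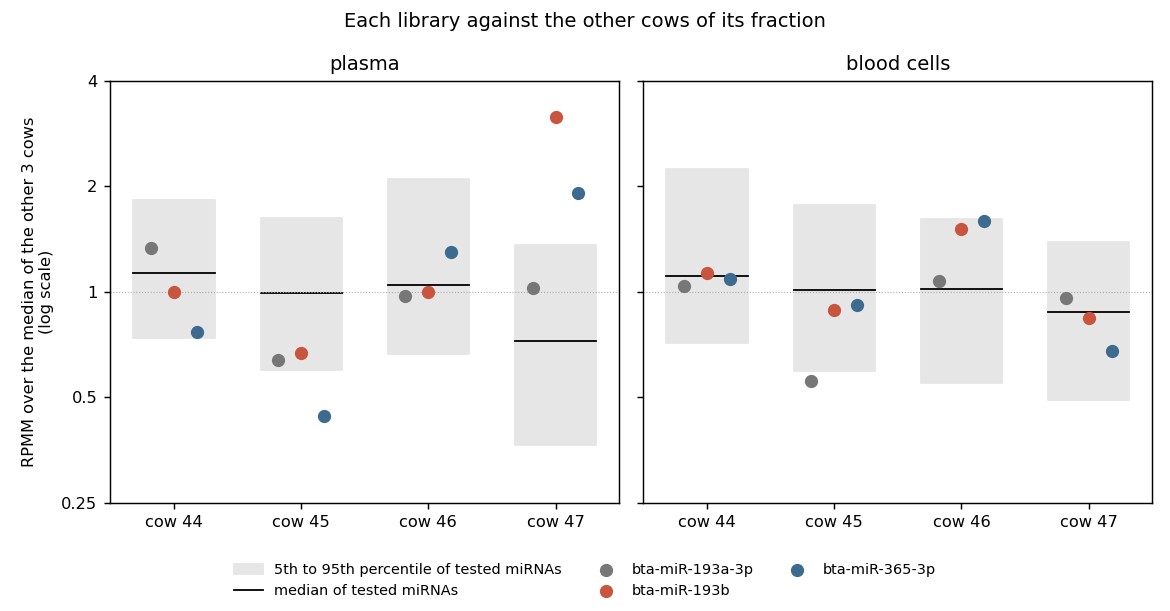
RPMM of a library over the median of the other 3 cows of its fraction, on a log axis, for the 3 tested members (points), with the median (line) and the 5th to 95th percentile (grey) of the tested miRNAs, plasma at the left and blood cells at the right. miR-193b at 3.16 and miR-365-3p at 1.92 lie above the grey range in the plasma of cow 47, miR-193a-3p at 1.03 lies in it, and in the blood cells of that cow all 3 lie in the range.

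Markers of other sources moved in the same plasma library. The 4 liver miRNAs (miR-122, miR-802, miR-885 and miR-483) summed to 177, 100.2, 135 and 1107 RPMM in the plasma of cows 44, 45, 46 and 47, against 0.689 to 4.00 RPMM in their blood cells. miR-122, which hepatocytes make in large amounts, had 75.0, 36.8, 47.3 and 814 RPMM in the plasma of cows 44, 45, 46 and 47. miR-802 had 97.7, 51.2, 79.1 and 269 RPMM in these libraries, and both were lowest in cow 45, as were the 3 tested members, while miR-193a-5p was lowest in cow 46. On the wider list of 8 liver-linked miRNAs, the sum, which miR-192 and miR-215 dominate, was not highest in cow 47. That list summed to 181927, 144976, 106903 and 171194 RPMM in the plasma of cows 44, 45, 46 and 47. miR-192 had 108988, 94615, 74141 and 129668 RPMM in these libraries, the highest in cow 47. miR-215 had 53339, 31786, 16728 and 13933 RPMM, the lowest in cow 47. miR-885, miR-483 and miR-148a were also highest in cow 47, and miR-194 was highest in cow 44. Apart from miR-122 and miR-802, only miR-483 of this list was lowest in cow 45, at 0.628 RPMM, less than 3 reads. miR-192, miR-194 and miR-148a were lowest in cow 46, miR-885 in cow 44 and miR-215 in cow 47. Among the paper's bovine tissues, miR-215 was found mainly in intestine. The plasma of cow 47 also had the highest sum of red blood cell miRNAs, 180387 RPMM against 89165 to 161148 in the other cows. That sum is mostly miR-486, at 162555 RPMM, whereas miR-451 was highest in cow 46 and miR-144 in cow 45. The sum of leukocyte miRNAs was lowest in cow 47, 33456 RPMM against 55971 to 70793, and miR-142-5p made up 25738 RPMM of it. miR-142-5p, miR-142-3p, miR-223, miR-150, miR-146a and miR-342 were each lowest in cow 47. miR-155 was lowest in cow 46, and miR-146b was highest in cow 47. The plasma library of cow 47 was the deepest, with 4296460 miRNA reads. The 7 muscle miRNAs were not high in it, at 109 RPMM against 97.1 to 320, and neither was miR-126, whose arms summed to 6294 RPMM against 5129 to 9762. Between the fractions, over all cows, the red blood cell miRNAs were lower in plasma and the members higher, which does not bear on a single plasma library. The part of liver, red blood cell and leukocyte RNA and of depth in the members' levels was not tested.

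**Figure D5:**
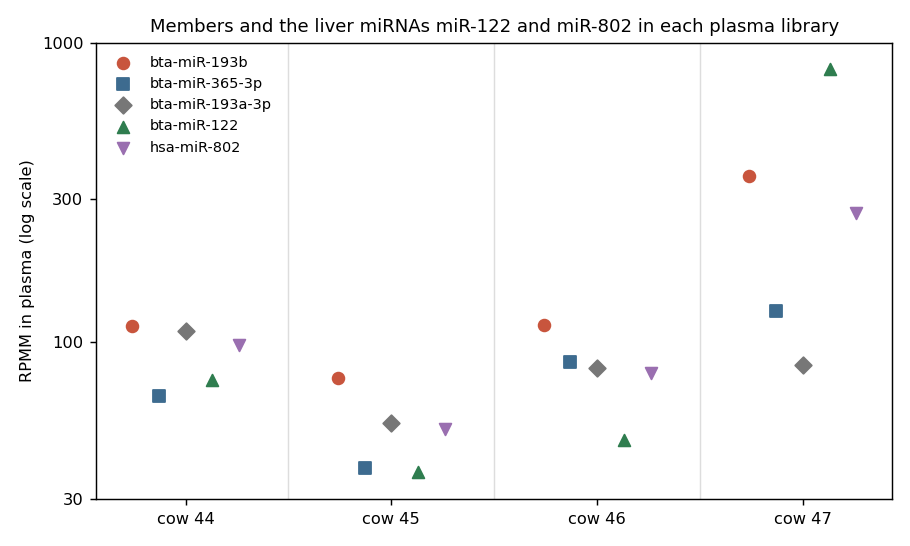
RPMM in the 4 plasma libraries on a log axis for miR-193b, miR-365-3p and miR-193a-3p and for miR-122 and miR-802 of the liver list, cow by cow. In cow 47, miR-122 reaches 814 RPMM, miR-193b 358 and miR-802 269, while miR-193a-3p stays at 84.0. In cow 45 all 5 are at their lowest, which most other liver-linked miRNAs, not drawn, are not.

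The spread between cows in plasma depended on single libraries. The coefficient of variation was 27.7% for miR-193a-3p, 47.1% for miR-365-3p and 78.5% for miR-193b, against a median of 24.0% over the 209, and 122, 183 and 199 of the 209 varied less. Without cow 47 the order turned, with 34.1% for miR-193a-3p, 37.9% for miR-365-3p and 21.5% for miR-193b, and without cow 45 miR-193a-3p was at 16.7%. In blood cells it was 25.1% for miR-193a-3p, 32.3% for miR-365-3p and 22.2% for miR-193b, with a median of 18.8%.

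The miRNAs with the most similar profiles over the 8 libraries were sought for each tested member. The profile is log2(TMM-scaled CPM + 1) less its mean, and likeness is the root mean square difference, given as a description because all miRNAs share the same libraries. Nearest to miR-193a-3p were miR-192, a miRNA of liver and intestine, at 0.35, miR-450b at 0.37 and miR-450a at 0.38, against a median of 2.02 over the tested miRNAs. Nearest to miR-193b were miR-22-3p at 0.54, miR-224 at 0.62 and miR-30f at 0.65 (median 1.59). Nearest to miR-365-3p were miR-22-3p at 0.36, miR-30f at 0.45 and miR-335 at 0.59 (median 1.66). These miRNAs were picked for likeness to members that are high in plasma, so their own direction follows largely from that choice. All were called higher in plasma, beside 45.5% of the 209. miR-450a, miR-450b, miR-224, miR-30f and miR-335 passed the filter through plasma alone, and of the 70 that did so 90.0% were called higher. The log2 fold changes were 2.43 for miR-22-3p, 2.76 for miR-335, 3.54 for miR-30f, 4.04 for miR-192, 4.46 for miR-450b and 4.72 for miR-450a. miR-224 had 88.0 to 115 RPMM in plasma against 6.56 to 11.2 RPMM in blood cells. miR-30f had 33.7, 20.4, 33.5 and 81.2 RPMM in the plasma of cows 44, 45, 46 and 47, with the high cow 47 and low cow 45 of miR-193b and miR-365-3p. Among the members themselves, miR-193b and miR-365-3p were closest at 0.45, nearer than any other tested miRNA was to miR-193b. To miR-365-3p, however, miR-22-3p was nearer at 0.36 and miR-30f as near at 0.45. Of the other pairs of members, miR-193a-3p and miR-365-3p were at 0.70 and the paralogues miR-193a-3p and miR-193b at 1.06.

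The members have been linked to fat and liver, and lists of both kinds were examined. Of 8 liver-linked miRNAs, 6 were tested and all 6 called higher in plasma, beside 45.5% of the 209, with a median log2 fold change of 6.67 beside 0.08. Plasma alone carried 3 of the 6 past the filter, and of the 70 miRNAs that passed so 90.0% were called higher. In the test on every name 5 of the 8 were called higher and 0 lower, beside 25.3% and 21.7% of the 704. The largest differences were those of miR-122, which averaged 243 ± 381 RPMM in plasma against 0.0656 ± 0.0852 RPMM in blood cells, and miR-802, which averaged 124 ± 98.5 RPMM in plasma against 0.0224 ± 0.0447 RPMM in blood cells (SD, n = 4), where 3 reads and 1 read in all stood behind the blood cell values. Both rest in part on cow 47, without which plasma averaged 53.0 ± 19.8 RPMM of miR-122 and 76.0 ± 23.4 RPMM of miR-802 (SD, n = 3). The log2 fold change of miR-122 was 9.59 with all cows and 7.45 without cow 47, while miR-215 of the same list was at 9.30 with all cows and 9.43 without cow 47.

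The adipocyte-linked miRNAs are known mostly from mouse and human fat cell differentiation. Of 30 such names in the table, 26 were tested, 11 were called higher in plasma, 9 lower and 6 neither, with a median log2 fold change of 0.11. Over the 209 the shares were 45.5% higher and 39.7% lower and the median 0.08, so the counts of the list lie near those of all tested miRNAs. With library totals alone, 18 of the 26 were called higher and 7 lower, beside 67.0% and 24.9% of the 209. In the test on every name, 12 were called higher and 9 lower, beside 25.3% and 21.7% of the 704. Plasma alone carried 6 of the 26 past the filter, both arms of miR-455 among them. Of the 70 miRNAs that passed so 90.0% were called higher. Both arms of miR-455, a miRNA linked to brown fat and cartilage, had the largest differences upward. miR-455-5p averaged 930 ± 123 RPMM in plasma against 0.447 ± 0.333 RPMM in blood cells (SD, n = 4), and its log2 fold change was 9.42. For miR-455-3p the means were 65.7 ± 14.6 RPMM in plasma against 0.126 ± 0.0578 RPMM in blood cells (SD, n = 4), and its log2 fold change was 7.26. The largest differences downward were those of miR-107, at -7.38, with means of 2.16 ± 0.928 RPMM in plasma against 119 ± 15.3 RPMM in blood cells, and of miR-26a, at -4.29, with means of 5433 ± 1096 RPMM in plasma against 32846 ± 1960 RPMM in blood cells (SD, n = 4). miR-107 passed the filter through blood cells alone. It has a near-identical paralogue, miR-103, so its reads could be counted under either name.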

How the data were processed

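Small RNA libraries of plasma and blood cells from 4 cows were analysed as 8 libraries. The authors removed reads without adaptor, with undetermined bases or under 15 bases, mapped the 36-base reads with sRNAbench to bosTau4 and miRBase names, allowing 1 mismatch (Bowtie 0.12.9 in the submitters' processing notes), and deposited a table of unscaled read counts, 1 row per mature name. Of the 704 names, 565 are bovine and the others human homologues. The authors also deposited RPMM, a normalised score with separate denominators for bovine and human names; human names were put on the bovine scale here.

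Counts were tested in R 4.3.3 by edgeR 4.0.16, with limma 3.58.1 loaded, as described above. Standard errors are the absolute log2 fold change over the square root of F. Ratios of reads used a pseudocount of 0.5. Alternatives were no block, RLE factors, library totals, DESeq2 1.42.0, the likelihood ratio test, other filters, bovine names only, a pseudocount of 1, TMM-scaled counts and leaving out each cow. The test was tried on simulated data.

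Libraries are paired because they come from the same animal. Same-cow deviations correlated at 0.05 to 0.21, against -0.18 to 0.11 between cows. Only for cow 47 was the same-cow value the highest, so these correlations do not identify the pairs. The miRNAs named are the members, other arms of their hairpins, the 3 nearest profiles per tested member, and up to 2 called names per direction from the fat and liver lists with the largest fold changes. Members and lists were chosen with earlier results of these data known. Replicates are separate cows.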

Additional observations from a re-analysis of the deposited data

Results flagged for a closer look

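Of 14 groups of 4 libraries checked for a library far from the others, 2 were marked, and chance marks about 1 in 20. miR-193b in plasma had its highest level in cow 47, at 358 RPMM, with the other cows at 76.0 to 114. miR-193a-3p in blood cells had its lowest level in cow 45, at 0.898 RPMM from 13 reads, with the other cows at 1.55 to 1.67 from 18 to 20 reads.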

How the results depend on the processing

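Direction and call of the 4 members held under the alternatives that gave a value, and 4 members were called in each of the 11 that gave this count. Between settings the log2 fold change was 3.68 to 5.82 for miR-193a-3p, 1.44 to 3.62 for miR-193b, 2.29 to 4.46 for miR-365-3p and 3.71 to 5.66 for miR-193a-5p, the low end being a filter at 2 RPMM, chosen after the data were seen, and the high end library totals alone. Leaving out a cow gave 4.09 to 4.29, 1.40 to 2.24, 2.33 to 3.05 and 4.05 to 4.60 in this order, and 2.08 to 2.75 for the summed paralogues. Without the replicate block the log2 fold change of miR-193b was 2.36. Without that block, so with the pairing ignored, the ratios of miR-193b to miR-193a-3p (-2.16) and of miR-365-3p to miR-193b (0.82) had an exact permutation p of 0.029, the smallest that 4 against 4 libraries allow. Leaving out a cow gave -2.73 to -1.92 and 0.70 to 0.93 for these ratios. A filter at 100 RPMM kept only miR-193b of the members. Depth limits miR-193a-5p and miR-365-5p, with 5 and 3 reads in blood cells. Of 273 alternatives for 27 results, the other miRNAs named included, 268 were labelled the same. Where an alternative gave a p, this means the same side of the threshold, and otherwise a value or count close to the main one. Among them is the ratio of the miR-193a arms, not a called result, which went from -0.30 to 0.03 without cow 46. No called result turned its direction. The others are the 2 ratios without the block and the 3 TMM-scaled values of cow 47 given above.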
